A study of Saccharomyces cerevisiae with 2 samples.

Results

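HXT1 to HXT10 are 10 genes of the hexose transporter family of the budding yeast Saccharomyces cerevisiae. They were found by the gene name given to non-control spots on both arrays, which gave 10 genes of the 6256 on the array. Their RNA was compared between a wild-type strain and a strain with the YDR374C gene deleted. Both were in BY4741, a haploid MATa laboratory background without working copies of HIS3, LEU2, MET17 and URA3. Both strains grew in SD, a synthetic defined medium, to mid-exponential phase at an OD600 of 0.7; the labels give no sugar concentration, no deletion marker and no number of clones. On each of 2 two-colour arrays wild-type RNA was green (Cy3) and deletion RNA red (Cy5), 0.2 ug of total RNA each. The dyes were not swapped, so a gene-specific dye effect cannot be told apart from a difference between the strains. Nothing says that the arrays came from separate cultures, so errors and p-values do not reach beyond these 2 arrays. The errors rest mostly on a variance pooled over all tested genes, not on each gene's own 2 values.

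Hexose transporters carry glucose, fructose and mannose across the plasma membrane by facilitated diffusion, and yeast chooses among them by affinity as the sugar outside changes. Glucose is sensed at the membrane by Snf3 and Rgt2, which lead to destruction of Mth1 and Std1 and so release HXT promoters from the repressor Rgt1. A second arm, in which the kinase Snf1 is opposed by the phosphatase Glc7 with Reg1, sets whether the repressor Mig1 keeps high-affinity transporter genes off in plentiful glucose. YDR374C encodes Pho92, an RNA-binding protein with a YTH domain.

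Differences in the family were small. Of the 10 genes 8 could be tested, and 5 were higher in deletion RNA: HXT4, HXT6, HXT10, HXT5 and HXT7, by 0.33 to 0.11 on the log2 scale. HXT3 had a negative ratio past the test, but its red signal was at the limit of the scanner, so its direction is not settled. HXT8 and HXT9 did not pass. The largest fold among the tested genes was 1.26, that of HXT4, and the median log2 ratio of the 8 was 0.12, against -0.0019 over all 5641 tested genes.

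These counts follow from limma's moderated test of the mean log2 ratio against 0, with Benjamini-Hochberg adjustment over all tested genes and a threshold of 0.05. By the same rule 36.4% of all tested genes were higher, 36.7% lower and 73.1% either, so 5 higher and 1 lower of 8 is close to the background of these arrays in its total. No member reached an absolute log2 ratio of 0.5, which 8.01% of tested genes did. With outlier spots kept all 10 members were tested, and again 5 were higher and 1 lower, against 36.4% and 37.6% of 6146 genes (74% either). The scanner software's own p-value, which rests on an error model for single spots, gave 0 members under 0.01 in every kept spot, against 2.55% of genes higher and 2.52% lower. Its smallest values in the family were 0.00564 for a spot of HXT3 and 0.00978 for a spot of HXT4, both on array 2.

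The arrays were similar in quality. The median gene spot read between 1597 and 3105 in a channel, local backgrounds had medians between 36 and 42, and every spot of the family was well above background in both channels. The family has 17 spots per array, with 7 genes in 2 spots and HXT1, HXT2 and HXT7 in 1. The deleted gene did not vanish from the red channel: the YDR374C ratio was -0.23 ± 0.03 on the log2 scale (limma adjusted p = 2.74e-05). Here and below, values are means over the arrays ± limma's moderated SE, n = 2. The call was lost with the scanner software's ratio (-0.31, limma adjusted p = 0.0879) and with the authors' series table (-0.16, limma adjusted p = 0.0813) for this gene, PHO92. Of its 2 spots 1 was not well above background, and the ratio of the other was -0.24 on array 1 and -0.04 on array 2. Red is therefore the RNA labelled as deletion, and each direction here rests on that label. Among genes specific to the a mating type 2 of 6 were higher (AGA2 at 0.34 and STE2 at 0.13) and 3 lower (STE6 at -0.62, BAR1 at -0.43 and MFA2 at -0.32), and among those of the alpha type 0 of 4 were higher and 2 lower, against 73.1% of all genes called. All of these but STE6 were named after their values were seen, and any part of these differences in the results of the family was not tested.

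**Figure D1:**
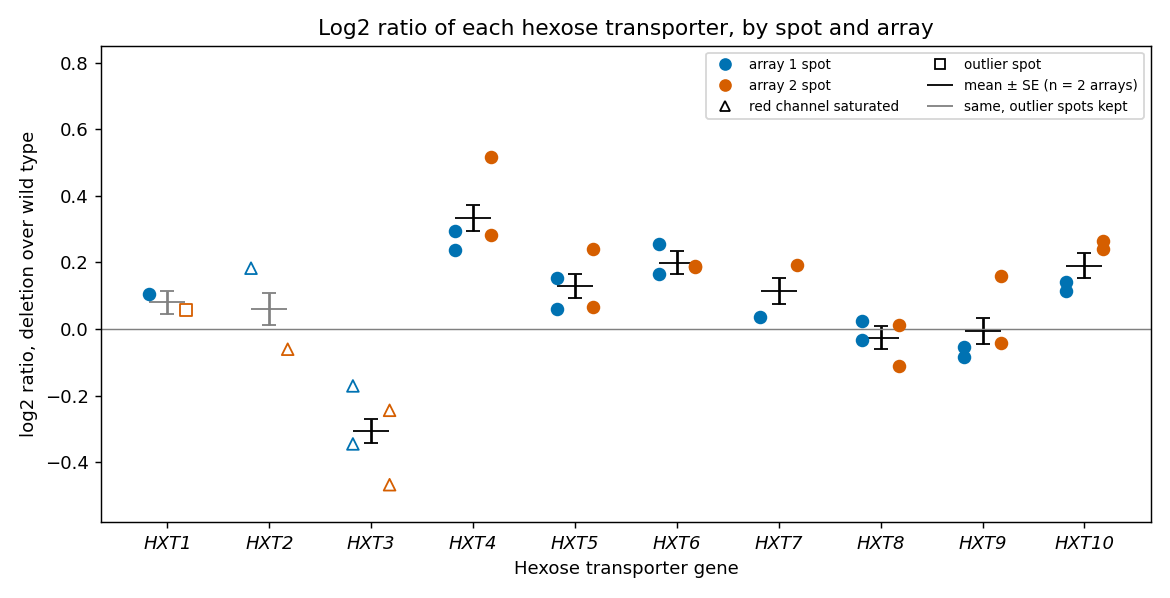
Log2 ratio of deletion over wild type (vertical axis) for each spot of HXT1 to HXT10 (horizontal axis). Array 1 is blue and array 2 orange. Bars give the mean over 2 arrays with limma's moderated SE, grey where outlier spots had to be kept. Open triangles mark spots with a saturated red channel, which are all spots of HXT3 and HXT2 (the HXT2 spot on array 2 is also an outlier), and all spots of HXT4, HXT5, HXT6, HXT7 and HXT10 lie above 0.

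HXT1 and HXT3 encode low-affinity transporters, which serve growth in ample glucose. HXT1 read 7855 in green and 13149 in red on array 1, rising to 13168 and 21635 on array 2. Its log2 ratios after loess normalisation were 0.10 and 0.06. Both lay just above 0, but the array 2 spot was marked as non-uniform in both channels, so HXT1 was not tested with such spots left out. With them kept the mean was 0.08 ± 0.03 (SE, n = 2; limma adjusted p = 0.0502), short of the threshold.

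HXT3 was limited by the scanner. Its green signals were 42925 and 48328 on array 1 and 49256 and 57606 on array 2, while the red signal of all these spots stood at 65219, with all of their red pixels saturated. The log2 ratios were -0.17 and -0.34 on array 1 and -0.24 and -0.47 on array 2. On each array the spot with more green had the lower ratio, since both had the same red signal. The fitted mean was -0.31 ± 0.04 (SE, n = 2; limma adjusted p = 2.86e-06). Any red signal beyond the limit would raise this ratio, and since red at its limit still lay below green after normalisation (log2 means of 15.63 against 15.94), no fold can be given in either direction. After median centring in place of loess the ratio was -0.031 (adjusted p = 0.556).

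HXT3 shared this limit with the brightest genes. Of the gene spots at least as bright in green as an HXT3 spot, 48 of 52 and 35 of 36 on array 1 were saturated in red, and 69 of 70 and 32 of 32 on array 2. The 100 spots with most green among those unsaturated in both channels had a median raw red-over-green ratio of 1.58 on array 1 and 1.56 on array 2. At these ratios a gene meets the red limit once its green signal reaches 41215 or 41779, and every HXT3 spot lay above that. Spots with saturated red were left out of these ratios, so the ratios may be too low and the green signals too high. HXT2 met the red limit on array 1 at a green signal of 33761. In a set defined after the data were seen, 28 tested genes were saturated in red in every kept spot and in green in none. Of them 20 were called lower, 2 higher and 6 neither, with a median log2 ratio of -0.22. Choosing genes with red cut off and green not lowers their ratios by construction, so this count is no test of HXT3.

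**Figure D2:**
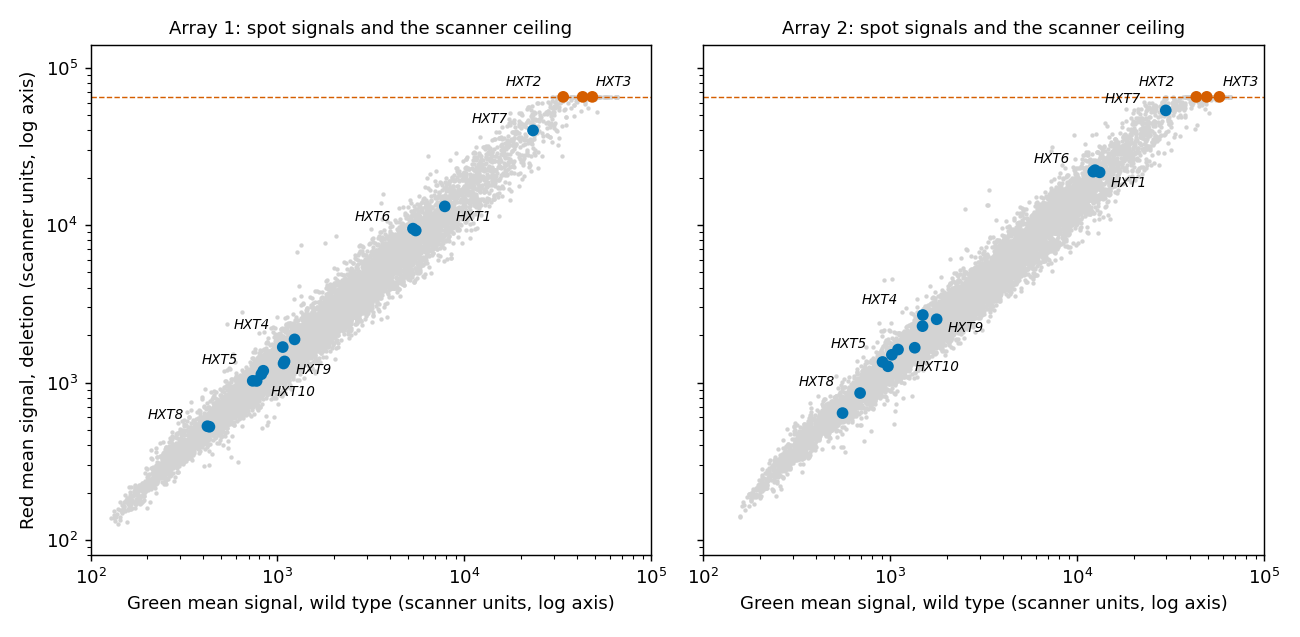
Red mean signal of deletion RNA against green mean signal of wild-type RNA (scanner units, log axes) for all gene spots (grey) and the spots of HXT1 to HXT10 (coloured), one panel per array. The dashed line is the highest red signal, 65219; the spots of HXT2 and HXT3 (orange) lie on it on both arrays and the other members (blue) below it.

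HXT2 and HXT4 encode transporters of higher affinity that are induced by low levels of glucose. HXT2 has 1 spot, with green signals of 33761 on array 1 and 43330 on array 2 and red at 65219 on both. Its log2 ratios were 0.18 and -0.06, of opposite sign. All of its red pixels were saturated on both arrays, and on array 2 green was marked as non-uniform, so it was not tested with outliers left out. With them kept the fitted ratio was 0.06 ± 0.05 (SE, n = 2; limma adjusted p = 0.264). With red at its limit and the arrays on opposite sides of 0, no fold or direction is given.

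HXT4 had the highest ratio of the family. Its spots read 1234 and 1067 in green and 1880 and 1680 in red on array 1, and 1487 and 1492 in green and 2281 and 2685 in red on array 2. The spots gave log2 ratios of 0.24 and 0.29 on array 1 and 0.28 and 0.52 on array 2. All were above 0, and the gap of 0.23 between its spots on array 2 was at or above that of 97.4% of genes with 2 spots. The mean of 0.33 ± 0.04 (1.26-fold; limma adjusted p = 2.09e-06) was larger than its spread between the arrays, and 22% of tested genes had a larger absolute ratio. URA3, which BY4741 lacks, gave much the same ratio, 0.33 ± 0.04 (0.27 and 0.39 on the arrays; limma adjusted p = 2.09e-06), from green signals between 264 and 531. Of the other genes without a working copy in BY4741, HIS3 had -0.03 ± 0.04 (limma adjusted p = 0.515) and did not pass. LEU2 and MET17 were too dim to be tested. URA3 and these genes were named after their values were seen. What gives the URA3 probe its signal and its ratio was not tested.

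HXT6 and HXT7 are neighbouring genes on chromosome IV, with HXT3 close by, and encode high-affinity transporters that are nearly identical to each other. Their probes may each read both RNAs, and neither probe sequences nor protein sequences were used here. HXT6 read 5306 and 5491 in green and 9497 and 9238 in red on array 1, and 12174 and 12443 in green and 21839 and 22333 in red on array 2. Its ratios were close between arrays, 0.21 and 0.19, with a mean of 0.20 ± 0.03 (SE, n = 2; 1.15-fold; limma adjusted p = 0.000108). HXT7 read 23289 in green on array 1 and 29743 on array 2, with 39927 and 53525 in red. Its ratios of 0.04 and 0.19 were further apart, so either array alone moves the value by more than 1.5 times. The mean was 0.11 ± 0.04 (SE, n = 2; 1.08-fold; limma adjusted p = 0.0191), and its array values overlapped those of HXT6. HXT7 missed the threshold with the scanner software's ratio (0.06, adjusted p = 0.283) and with the authors' series table (0.12, adjusted p = 0.0686).

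The scale of the bright members depended on how the dyes were balanced. The median raw red-over-green ratio was 1.32 and 1.31 over all gene spots, below the 1.58 and 1.56 of the brightest unsaturated spots, and loess removes this trend whereas median centring leaves it in. With median centring HXT6 had 0.39 and HXT7 0.38, and with outlier spots kept HXT1 had 0.30 and HXT2 0.33, the last with red at its limit. HXT1 and HXT2 then passed limma's test, with adjusted p of 1.59e-05 and 0.000724.

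HXT5 encodes a transporter that is expressed in slow growth and starvation. It read 840 and 774 in green and 1188 and 1024 in red on array 1, and 1019 and 971 in green and 1501 and 1269 in red on array 2. All of its spots were above 0, at 0.15 and 0.06 on array 1 and 0.24 and 0.07 on array 2. The mean was 0.13 ± 0.03 (SE, n = 2; 1.09-fold; limma adjusted p = 0.00387). This call was lost after median centring (0.075, adjusted p = 0.068).

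HXT8, HXT9 and HXT10 are less studied members that laboratory strains express weakly; HXT9 is known as a target of the drug-resistance regulators Pdr1 and Pdr3. HXT10 was higher, with log2 ratios of 0.14 and 0.12 in its spots on array 1 and 0.24 and 0.27 on array 2. Its spots agreed closely within each array and differed more between arrays, and the mean was 0.19 ± 0.04 (SE, n = 2; 1.14-fold; limma adjusted p = 0.000401). Its signals ran from 737 to 1099 in green and from 1025 to 1620 in red.

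HXT8 signals ran from 422 to 689 in green and from 524 to 858 in red. Its array means were -0.003 and -0.05, with a fitted mean of -0.03 ± 0.03 (SE, n = 2; limma adjusted p = 0.518). HXT9 had -0.07 on array 1 and 0.06 on array 2, of opposite sign, and a mean of -0.01 ± 0.04 (SE, n = 2; limma adjusted p = 0.915). Its spots on array 2 stood apart, at 0.16 and -0.04. Of the 8 tested members HXT9 was the only one whose arrays differed in sign.

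**Figure D3:**
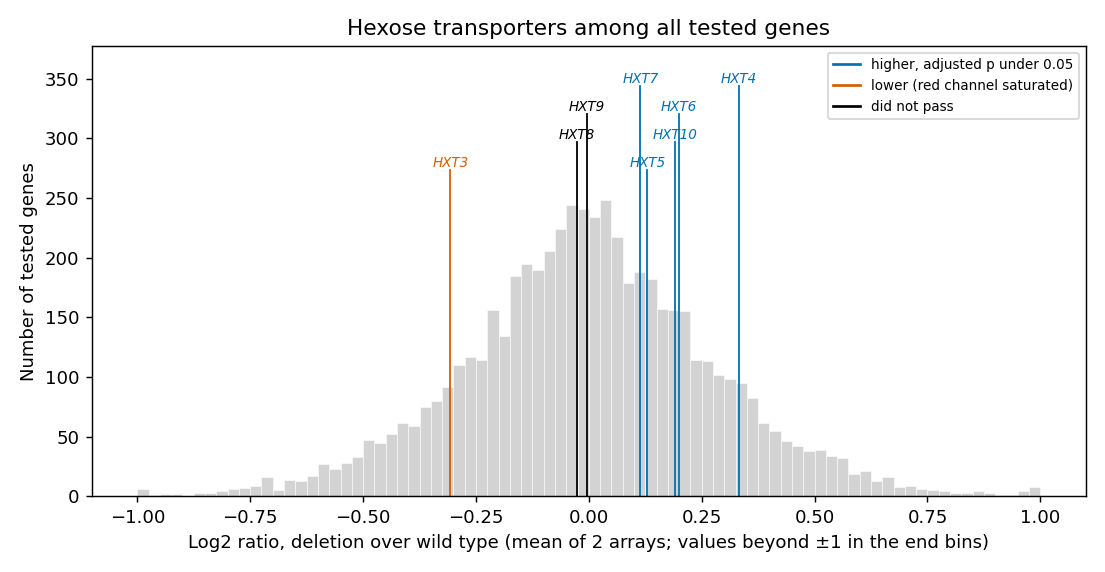
Histogram of the mean log2 ratio, deletion over wild type, of all 5641 tested genes (horizontal axis; vertical axis, number of genes), with lines at the 8 tested hexose transporters. HXT4 at 0.33 and HXT3 at -0.31, the latter with red at the scanner's limit, are the outermost, and all 8 lie within the 5th to 95th percentile of genes, -0.47 to 0.46.

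Ranked by ratio, the 8 members below the scanner's limit ran from HXT4 through HXT6, HXT10, HXT5, HXT7, HXT1 and HXT9 to HXT8. HXT2 and HXT3, saturated in red, have no settled place in this order. HXT4 lay above HXT6 with no overlap of their array values, by a gap of 0.06, but below it after median centring, with 0.29 against 0.39. All other neighbours in this order overlapped. HXT4 stood at rank 630 of 5641, HXT6 at 1236, HXT10 at 1291, HXT5 at 1703 and HXT7 at 1818. For HXT5 and HXT7, 60.4% and 64.5% of tested genes had a larger absolute ratio, and for HXT6 and HXT10, 43.7% and 45.4%. Ratios varied within the chromosome clusters: on chromosome VIII the cluster of HXT4, HXT1 and HXT5 gave 0.33, 0.08 and 0.13, and on chromosome IV HXT7, HXT6 and HXT3 gave 0.11, 0.20 and -0.31, the last at the scanner's limit.

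The signal of the members was also set side by side between arrays within a channel, where effects of spot and array do not cancel. After loess and Aquantile normalisation the HXT6 signal was 1.56-fold higher on array 2 than on array 1 in green (wild type) and 1.54-fold higher in red (deletion). Only 4.82% and 5.52% of 6146 genes moved more between the arrays. HXT7, its near-identical neighbour, was at 0.890-fold and 0.992-fold. The other members moved by at most 0.23 on the log2 scale in either channel, with red of HXT2 and HXT3 held at the scanner's limit. For HXT6 these differences between arrays were 0.65 and 0.62 on the log2 scale, and its ratio between the strains was 0.20. That ratio is taken within an array, so the sizes are unlike measures, and the source of the HXT6 shift was not tested. Differences between the arrays were similar in both colours across genes, with r = 0.966 over 6146 genes, which share the arrays and the normalisation.

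**Figure D4:**
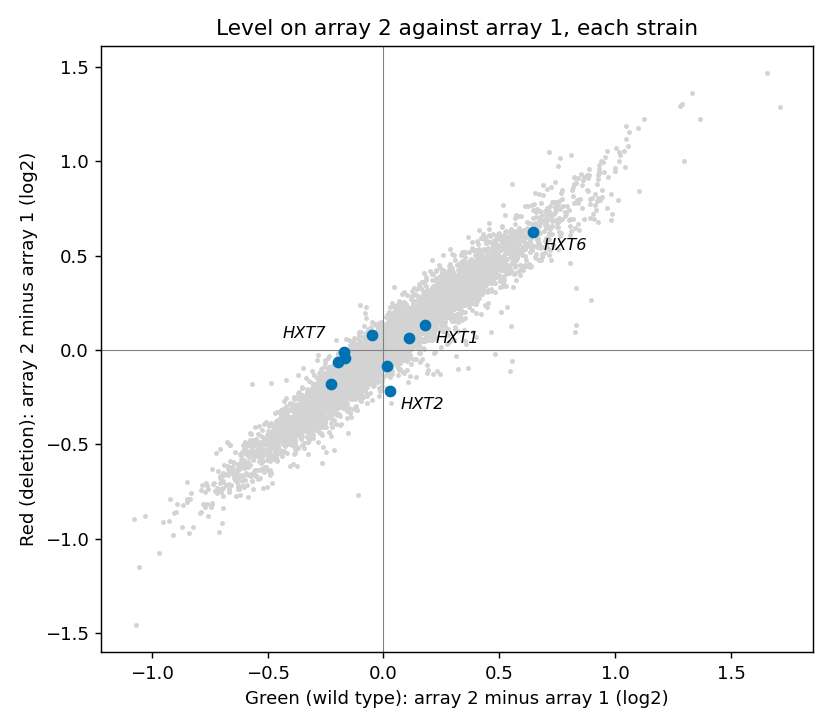
Difference in normalised log2 signal between array 2 and array 1 in red (deletion, vertical axis) against green (wild type, horizontal axis) for 6146 genes (grey) and HXT1 to HXT10 (blue). HXT6 lies at 0.65 and 0.62, away from HXT7 and the other members, which lie within 0.23 of 0 on both axes.

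Genes of glucose uptake and signalling outside the family moved in both directions. So did all tested genes, of which 36.4% were higher and 36.7% lower. Of 11 tested genes listed as other sugar transporters 5 were higher and 5 lower (median 0.06). The list is mixed: HXT13, HXT14, HXT16, HXT17 and GAL2 were higher, and MAL11, MAL31, MPH2, MPH3 and STL1 lower. All of these but MAL11 were named after their values were seen. MAL11, a maltose and general alpha-glucoside transporter, was lower on both arrays (-0.55 and -0.61), with a mean of -0.58 ± 0.04 (SE, n = 2; limma adjusted p = 2.94e-09). Named after their values were seen, HXT17 (0.29 ± 0.04) and HXT13 (0.26 ± 0.03) were the highest of the later-numbered family members, HXT14 (0.09 ± 0.03) and HXT16 (0.12 ± 0.04) were also higher, HXT15 (0.06 ± 0.04) did not pass and HXT11 was untested for an outlier spot. HXT14 and HXT16 lost their calls after median centring, with 0.03 and 0.04. HXT16 also lost its call with the scanner software's ratio (0.19, limma adjusted p = 0.216), and had 0.41 in the authors' series table. Whether the probes of these related genes also read each other's RNA was not examined.

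In the arm of glucose sensing 3 of 9 tested genes were higher and 4 lower (median -0.02). The kinase gene YCK2 (0.38 ± 0.03) and the repressor gene RGT1 (0.27 ± 0.03) were higher, and SNF3, the sensor of low glucose, was lower (-0.35 ± 0.04). In the Snf1 and Mig1 arm 4 of 15 were higher and 9 lower (median -0.10). GLC7 stood far from the rest, at 2.03 and 1.85 on the arrays, with a mean of 1.94 ± 0.04 (SE, n = 2, 3.84-fold, limma adjusted p = 2.25e-13). Any part of GLC7 in the ratios of the hexose transporters was not tested.

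Of 4 genes for hexose phosphorylation 3 were higher and 1, HXK2, had a negative ratio past the test (median 0.35). HXK1, the hexokinase that glucose represses, was higher by 0.54 ± 0.03 (SE, n = 2; 0.55 and 0.54 on the arrays; limma adjusted p = 3.99e-09). HXK2, the main hexokinase in glucose, which was also named only once its value was known, had -0.19 ± 0.03 from a single spot that was saturated in red on array 2, and 0.083 (limma adjusted p = 0.0773) after median centring, so its direction is not settled. Of 12 tested genes listed as glucose-repressed, which do not all encode enzymes, 5 were higher and 6 lower (median -0.02). PCK1 of gluconeogenesis had 0.35 ± 0.04, the alcohol dehydrogenase ADH2 0.26 ± 0.04 and GAL3 of galactose induction 0.18 ± 0.04. The shares called in these lists stood against 36.4% higher, 36.7% lower and 73.1% either over all tested genes.

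**Figure D5:**
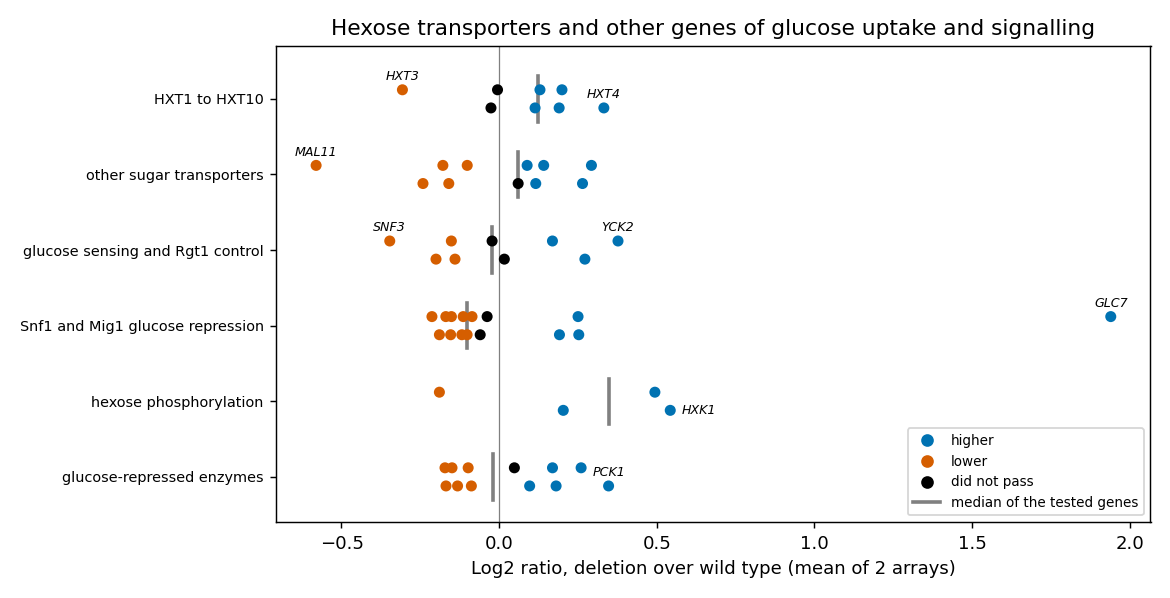
Mean log2 ratio, deletion over wild type (horizontal axis), of each tested gene in the family and in 5 lists of glucose uptake and signalling genes (rows); blue was called higher, orange lower, black did not pass, and grey bars are list medians. Every list has points on both sides of 0, medians lie between -0.10 and 0.12 except 0.35 for hexose phosphorylation, and GLC7 at 1.94 stands apart.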

How the data were processed

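For every spot the deposited files list green and red intensity, local background and quality flags, written by Agilent Feature Extraction 9.5.3.1 per the file headers (9.3.2.1 per the submitters' processing notes). They also hold log10 ratios of red over green after dye normalisation and a p-value for each, per the file headers. The authors also deposited log2 ratios per probe, which ran in the same direction as the scanner ratios (r = 0.994 and 0.990 across probes, medians -0.00491 and -0.000163); the sources used here do not say how they were averaged and centred.

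Mean signals were corrected with normexp (offset 50) against median local background and normalised within arrays by loess, to which control spots did not contribute (limma 3.58.1, R 4.3.3). Spots marked as non-uniform or population outliers (6.47% and 8.92% of gene spots) were left out, saturated spots kept, and spots of a probe averaged. On each array a gene needed at least 1 kept spot and at least 1 channel flagged well above background, and 5641 genes met both. With outlier spots kept, 6146 genes were tested. Ratios were tested against 0 with lmFit and eBayes, whose SE draws mostly on a variance pooled over all tested genes (prior df 13.23, prior SD 0.0505). Levels by channel used Aquantile. In simulated data with 5641 genes for this comparison, 30% of genes changed by 0.125 on the log2 scale, 100% of those changed by 0.25 or more and 0.11% of unchanged genes were called. The simulation held no dye effect and drew its noise from the model that the test assumes. It left 5441 of the 5641 genes unchanged, whereas 73.1% of genes were called in the data. These shares therefore do not carry over to the data.

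The members and lists were chosen with earlier results of these data known. Named are all members, YDR374C, GLC7, and in each list tested genes past the threshold with an absolute log2 ratio of at least 0.5, or else the 3 largest; other genes are said to be named after their values were seen. RefSeq (assembly R64) gave current names for 5756 genes, and the other 500 kept the file's name. The files name no genome build, so no coordinates are given.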

Additional observations from a re-analysis of the deposited data

How the results depend on the processing

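HXT4, HXT6 and HXT10 kept their direction and call under all 9 tested alternatives, from 0.29 to 0.36, from 0.20 to 0.39 and from 0.14 to 0.22, and HXT8 and HXT9 did not pass under any (adjusted p from 0.0517 and from 0.246 upward). Of 86 tested alternative values over the members 75 kept direction and side of the threshold. Part of these counts was fixed in advance. HXT4 to HXT10 have no spots flagged as saturated, outlier or dim. Changing those filters therefore left their ratios as they were, at 0.33 for HXT4, 0.20 for HXT6 and 0.19 for HXT10. The scanner software's ratios and the series table are also closely correlated (r = 0.994 and 0.990 on the arrays). With median centring in place of loess, HXT3 had -0.031 (adjusted p = 0.556) and HXT5 0.075 (adjusted p = 0.068), and HXT1 (0.30) and HXT2 (0.33), with outlier spots kept, passed. HXT1 also passed without background correction (0.0801, adjusted p = 0.0421), without saturated spots (0.0805, adjusted p = 0.0426), with both channels required above background (0.0805, adjusted p = 0.0468) and with the scanner software's log ratio (0.0951, adjusted p = 0.048). HXT7 did not pass with that ratio (0.0602) or the series table (0.12), and HXT2 turned to -0.0244 with that ratio (adjusted p = 0.762). Leaving out saturated spots or requiring both channels above background left the HXT1 ratio itself unchanged at 0.0805. Only the set of genes tested with it differed. Loess follows signal strength and median centring does not. The cause of the remaining changes was not tested. Single-array values, which have no test, ran from 0.06 to 0.10 for HXT1, -0.06 to 0.18 for HXT2, -0.36 to -0.26 for HXT3, 0.27 to 0.40 for HXT4, 0.11 to 0.15 for HXT5, 0.19 to 0.21 for HXT6, 0.04 to 0.19 for HXT7, -0.05 to -0.00 for HXT8, -0.07 to 0.06 for HXT9 and 0.13 to 0.25 for HXT10, so the arrays had opposite signs for HXT2 and HXT9.

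The count of 1 lower member became 0 with median centring, without saturated spots, where HXT3 has no spot left, and by the scanner software's p-values, by which 0 members were higher. By those p-values 144 of all genes were higher and 142 lower. A limit on the absolute log2 ratio of 0.5 left 233 higher and 219 lower genes, and a limit of 1 left 8 and 6. Median centring left 3 higher genes among other sugar transporters, and 0 lower among hexose phosphorylation genes, as did leaving out saturated spots. No paired analysis was possible because a replicate block adds nothing to ratios taken within an array, whose test against 0 already pairs the RNAs. The 2 arrays without a dye swap limit the precision, and saturation leaves HXT2 and HXT3 unresolved.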
